A study of Mus musculus with 8 samples.

Results

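The data examined here are the transcript levels of 7 enzymes of cholesterol synthesis in the mature mouse primary motor cortex (M1) after knockdown of *Fezf2*, a transcription factor of layer 5 projection neurons. The members are *Hmgcs1*, *Idi1*, *Fdps*, *Fdft1*, *Sqle*, *Lss* and *Msmo1*, chosen by name, and they are 7 of the 38031 genes with counts. All 7 are enzymes of synthesis and none takes cholesterol up, so uptake is described here only from a separate list of genes. RNA-seq libraries of total RNA were made from M1 of male Swiss Webster mice, 4 from *Fezf2* shRNA-treated and 4 from non-silencing shRNA-treated (control) animals. In both treatments a lentivirus carrying an mCherry reporter was injected at P21 to P25, and tissue was taken at P49 to P53 by its mCherry signal. Both shRNAs were driven by a Synapsin I promoter, which is active in neurons, whereas the RNA came from whole M1 tissue with glia and vessels. The comparison asks what a lower level of *Fezf2* in mature neurons does to the M1 transcriptome.

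Cholesterol is made from acetyl-CoA by a chain of enzymes in the cytosol, the endoplasmic reticulum and peroxisomes. In most cells the genes of this chain are switched on together by SREBP2, a transcription factor held back by sterols, and are turned down when sterols are plentiful. The brain makes nearly all of its own cholesterol because lipoproteins of the blood do not cross the blood-brain barrier. Oligodendrocytes use much of it for myelin, and astrocytes supply neurons with cholesterol in lipoprotein particles.

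Early in the chain, *Hmgcs1* forms HMG-CoA, *Idi1* interconverts the isoprenoid building blocks and *Fdps* joins them into farnesyl diphosphate. *Fdft1* then makes squalene, the first product committed to sterols, *Sqle* oxidizes it and *Lss* closes it into lanosterol. *Msmo1* acts after this step and removes methyl groups at carbon C4 of the sterol ring.

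The promoters of *Hmgcs1* and *Lss* are shown because the counted transcript of each begins after the RefSeq start. Their fold changes played no part in this choice. The enzymes of the chain are known to be controlled together. The sequences are those of RefSeq on GRCm38.p6 and cover the 180 bases before the annotated start, 5′ to 3′ on the plus strand. They lie at chr13:119690171-119690350 for *Hmgcs1* and at chr10:76531425-76531604 for *Lss*. Capitals mark matches to CACCCCAC (8 letters of a sterol regulatory element), CCAAT and GGGCGG (a GC box), searched on both strands, so that ATTGG and CCGCCC are matches on the opposite strand.
Hmgcs1: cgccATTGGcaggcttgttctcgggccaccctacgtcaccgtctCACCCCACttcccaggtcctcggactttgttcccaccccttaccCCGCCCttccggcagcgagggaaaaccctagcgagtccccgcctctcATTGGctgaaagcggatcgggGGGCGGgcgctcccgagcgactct
Lss: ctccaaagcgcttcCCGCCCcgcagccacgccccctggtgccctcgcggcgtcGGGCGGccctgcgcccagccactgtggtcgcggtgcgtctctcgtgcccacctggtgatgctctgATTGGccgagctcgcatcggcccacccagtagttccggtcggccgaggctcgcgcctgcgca

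A promoter window of 300 bases, 250 before the start and 50 after it, was found for 4 of the 7 genes, namely *Hmgcs1*, *Idi1*, *Lss* and *Msmo1*. CACCCCAC occurred in *Hmgcs1* alone among them, beginning 136 bases before the start, and it occurred in 2.87% of all 32851 promoter windows. CCAAT was found in each of the 4 windows, with 4 matches in *Hmgcs1*, 2 in *Idi1*, 1 in *Lss* and 3 in *Msmo1*, and it was present in 37.4% of all windows. GGGCGG was also found in each of the 4, with 3 matches in *Hmgcs1*, 1 in *Idi1*, 2 in *Lss* and 2 in *Msmo1*, and in 35.7% of all windows. Both CCAAT and GGGCGG were present in 12.8% of all windows. None of the matches in these genes overlapped another. A match describes the letters of the window and not a bound site.

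Across the libraries, 54684016 to 58003814 counts fell on genes. *Fezf2* itself, as normalized counts (counts scaled to the mean library), was at 591 ± 22.1 under *Fezf2* shRNA and 723 ± 35.4 under non-silencing shRNA (SD, n = 4 each), and the treatments did not overlap. Its log2 fold change was -0.29 (standard error 0.0760, edgeR quasi-likelihood test with Benjamini-Hochberg adjustment, adjusted p = 0.0765). A filter of more than 8 CPM (counts scaled by library size) in 4 or more libraries left 9959 genes to test, the 7 enzymes included. A gene passed the threshold at an adjusted p of at most 0.05 if its log2 fold change was also 0.2 or more in size. This held for 218 genes, or 2.19% of those tested, of which 205 increased and 13 decreased. The labels do not tie libraries to named animals, although the design gives 4 animals per treatment, so the p-values measure the spread between these samples.

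None of the 7 cholesterol synthesis genes passed the threshold, against the background of 2.19% (edgeR), and 1 had an unadjusted p under 0.05. With DESeq2 none of the 7 passed either, where 752 of all 9959 genes tested passed without its prior and 734 with it. In the edgeR fit, 6 of the 7 had a lower level and 1 had a higher level in *Fezf2* shRNA-treated tissue. The median log2 fold change of the 7 was -0.11, beside -0.03 for all genes tested, of which 56.6% were below 0. The values ran from -0.20 for *Idi1* to 0.03 for *Lss*. For no member did the *Fezf2* shRNA and control samples separate, whereas 11.8% of all genes tested did so in either direction and 4.41% were lower in *Fezf2* shRNA-treated tissue without overlap. An unadjusted p under 0.05 with a lower level was found for 7.85% of all genes tested and for 1 of the 7 members.

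**Figure D1:**
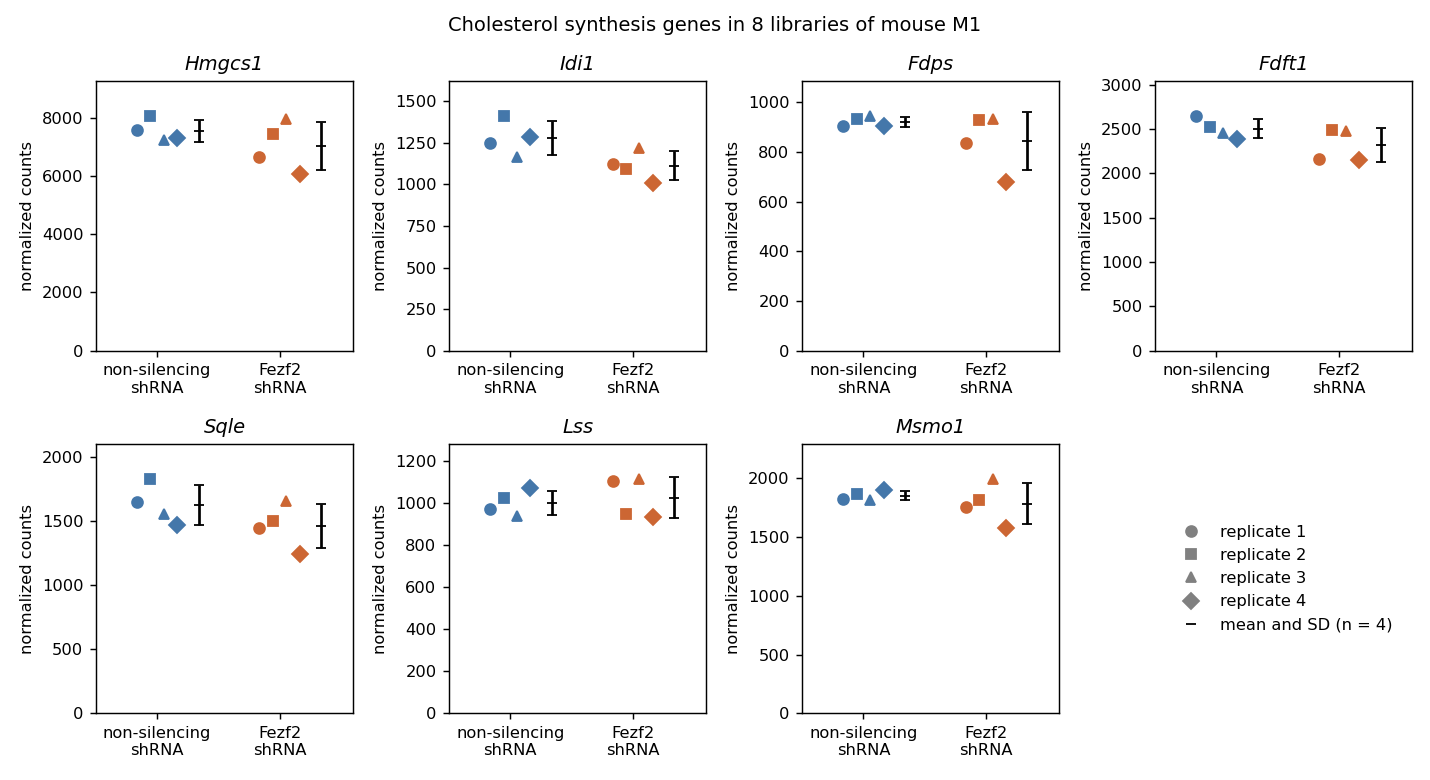
Normalized counts (vertical axis, from 0) of the 7 genes, 1 panel each in pathway order, in non-silencing shRNA (blue) and *Fezf2* shRNA (orange) samples. Symbols mark the replicate number, and the bar gives the mean and SD of 4 libraries. The treatments overlap in every panel, and *Fezf2* shRNA replicate 4 (orange diamond) is the lowest of the 8 libraries in all 7.

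*Hmgcs1*, which makes HMG-CoA, was the most abundant of the 7 genes. Its normalized counts were 7586, 8056, 7231 and 7301 in control replicates 1 to 4 and 6647, 7450.0, 7961 and 6074 in *Fezf2* shRNA replicates 1 to 4. *Fezf2* shRNA replicates 1 and 4 lay below all controls, while replicate 3 lay above 3 of the 4 controls. The means were 7033 ± 837 and 7544 ± 374 (SD, n = 4), and the log2 fold change was -0.10 (standard error 0.0843, 95% interval -0.29 to 0.09, edgeR adjusted p = 0.518). The exact permutation test gave p = 0.343 (two-sided), where 0.0286 is the smallest value that 4 against 4 samples allow.

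*Idi1*, the isomerase that supplies the building block for chain growth, had the largest difference of the 7. It had 1252, 1410.1, 1162 and 1283 normalized counts in control samples and 1122, 1093, 1220.2 and 1011 in *Fezf2* shRNA-treated samples, in order of replicate. Of the *Fezf2* shRNA-treated samples, 3 lay below every control, and replicate 3 lay above control replicate 3. The means of 1112 ± 86.2 and 1277 ± 103 (SD, n = 4) differed by -0.20 on the log2 scale (standard error 0.0822, 95% interval -0.38 to -0.02). The unadjusted p of 0.0342 became 0.221 after adjustment over all genes tested (edgeR), and the exact permutation test gave 0.0571. Of all genes tested, 8.21% had a lower log2 fold change than *Idi1*.

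*Fdps*, which makes farnesyl diphosphate for both sterols and protein prenylation, had 906, 932, 944 and 905 normalized counts in control samples. The *Fezf2* shRNA-treated samples had 837, 927, 932 and 680.3. Replicates 1 and 4 were below all controls, whereas replicates 2 and 3 lay within the control range. The SD was 117 around a mean of 844 in *Fezf2* shRNA-treated samples and 19.4 around 922 in controls (n = 4 each). On the log2 scale the difference was -0.13 (standard error 0.0994, 95% interval -0.35 to 0.09, edgeR adjusted p = 0.486).

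*Fdft1*, squalene synthase, had 2645, 2526, 2455 and 2392 normalized counts in control samples and 2158, 2485, 2481 and 2149 in *Fezf2* shRNA-treated samples. As for *Hmgcs1* and *Fdps*, *Fezf2* shRNA replicates 1 and 4 lay below all controls and replicates 2 and 3 did not. The means were 2318 ± 190.4 and 2504 ± 109 (SD, n = 4), and the log2 difference was -0.11 (standard error 0.0708, 95% interval -0.27 to 0.05, edgeR adjusted p = 0.394).

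*Sqle*, squalene epoxidase and one of the slow steps of the chain, had 1648, 1827, 1554 and 1467 normalized counts in control samples. It had 1443, 1501, 1654 and 1244 in *Fezf2* shRNA-treated samples. Replicates 1 and 4 were again below every control, and replicate 3 was above 3 of the 4 controls. The means of 1461 ± 169.5 and 1624 ± 154 (SD, n = 4) differed by -0.15 on the log2 scale (standard error 0.0970, 95% interval -0.37 to 0.06, edgeR adjusted p = 0.394).

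*Lss*, lanosterol synthase, was the one member with a higher mean in *Fezf2* shRNA-treated tissue. It had 971, 1023, 938 and 1069 normalized counts in control samples and 1104, 946, 1114 and 934 in *Fezf2* shRNA-treated samples. Replicates 1 and 3 lay above all controls and replicate 4 below all of them, so that the *Fezf2* shRNA-treated samples enclosed the control range. The means were 1024 ± 97.9 and 1000.2 ± 57.5 (SD, n = 4), and the log2 difference was 0.03 (standard error 0.0840, 95% interval -0.15 to 0.22, edgeR adjusted p = 0.844). Without *Fezf2* shRNA replicate 1 the value was -0.00.

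*Msmo1*, the sterol C4-methyl oxidase, had 1824, 1866, 1813 and 1898 normalized counts in control samples and 1755, 1814, 1993 and 1574 in *Fezf2* shRNA-treated samples. The highest and the lowest of the 8 libraries were both *Fezf2* shRNA-treated. The means were 1784 ± 173 and 1850.0 ± 39.2 (SD, n = 4), and the log2 difference was -0.05 (standard error 0.0746, 95% interval -0.22 to 0.11, edgeR adjusted p = 0.722). The sign was not stable, with 0.00 when *Fezf2* shRNA replicate 4 was left out and 0.02 when an offset for gene length was used.

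**Figure D2:**
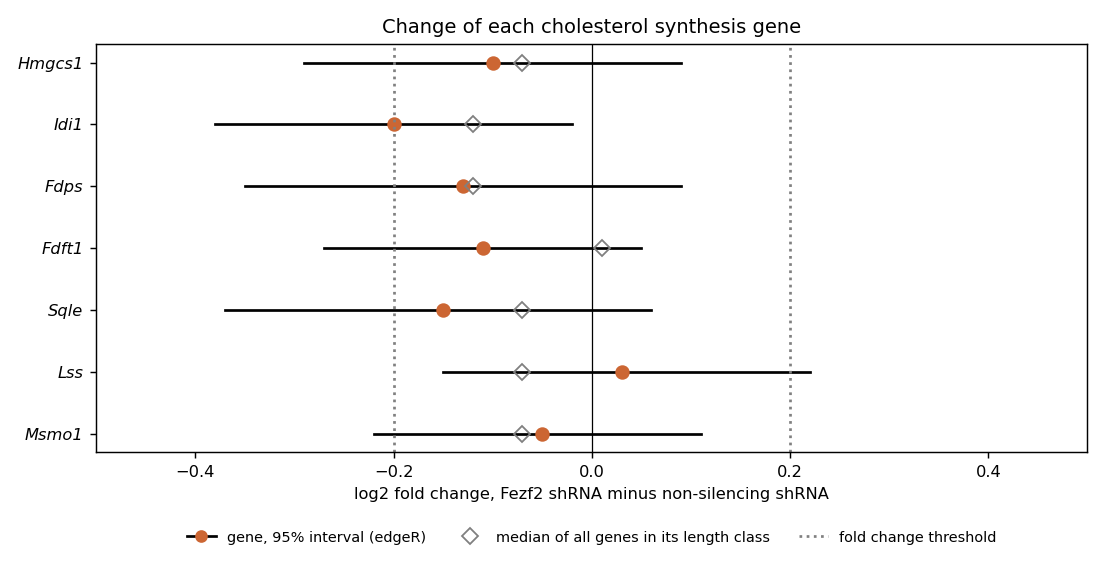
Log2 fold change (horizontal axis, *Fezf2* shRNA minus non-silencing shRNA) of each gene with its 95% interval from edgeR. Open diamonds give the median of all genes tested in the same class of gene length, and dotted lines the fold change threshold of 0.2 in each direction. The interval of *Idi1* ends at -0.02 and the intervals of the other 6 genes include 0.

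Per length, *Hmgcs1* stood well above the other 6 genes. Over the 8 libraries *Hmgcs1* had 7.34 ± 0.664 CPM per kb of the counted interval (SD, n = 8) and *Idi1* had 3.05 ± 0.318. *Msmo1* followed with 2.06 ± 0.138, *Fdps* with 1.87 ± 0.187 and *Sqle* with 1.70 ± 0.191, and the ranges of these 3 genes over the libraries overlapped. The range of *Sqle* also overlapped that of *Fdft1*, which had 1.31 ± 0.0950 CPM per kb, and *Lss* was lowest with 0.753 ± 0.0561. The counted intervals hold introns and are 10.4% exonic for *Fdft1* but 50.4% for *Idi1* and 50.3% for *Fdps*, so these levels per kb depend on the exonic share. Bases count as exonic if they lie in an exon of any annotated transcript of the gene, transcripts with retained introns included.

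The 7 genes varied together across libraries. Each gene was set against its own mean over the 8 libraries on the log2 scale, and these deviations were averaged over the 7 genes. The average was 0.05, 0.12, 0.00 and 0.03 in control replicates 1 to 4 and -0.06, -0.01, 0.10 and -0.23 in *Fezf2* shRNA replicates 1 to 4. Control replicate 2 and *Fezf2* shRNA replicate 3 were above the mean in 7 of 7 genes, and *Fezf2* shRNA replicate 4 was below it in 7 of 7. The last was the lowest of all 8 libraries for each of the 7 genes, while it was lowest for 17.8% of all genes tested. With an offset for gene length, or with library totals in place of TMM normalization, it was lowest for 6 of the 7.

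**Figure D3:**
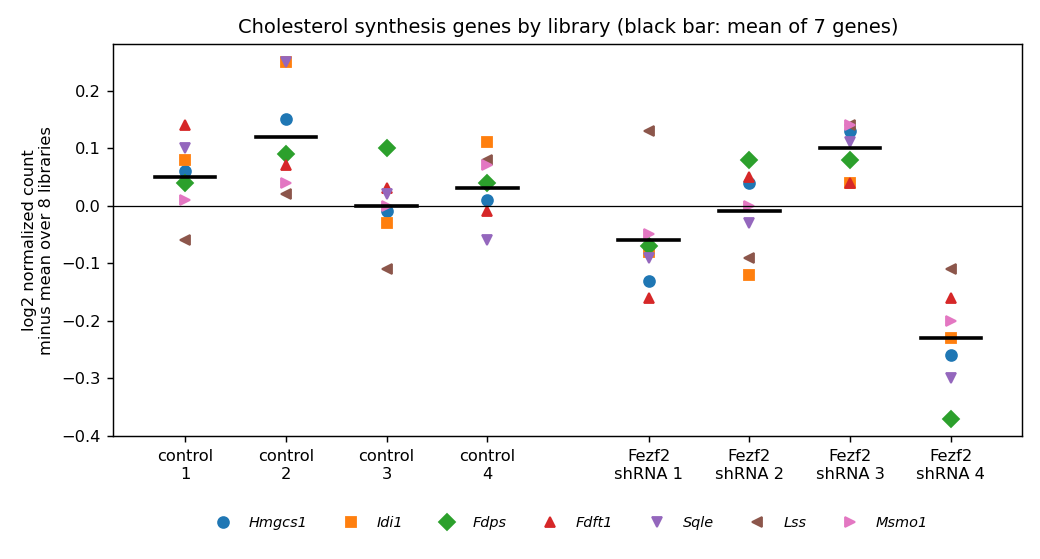
Deviation of each of the 7 genes from its mean over the 8 libraries (vertical axis, log2 normalized count), by library (horizontal axis), with the average of the 7 genes as a black bar. *Fezf2* shRNA replicate 3 (0.10) and replicate 4 (-0.23) lie at opposite ends of the treated group.

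The difference between treatments therefore moved with single libraries. Without *Fezf2* shRNA replicate 4, the median log2 fold change of the 7 genes was -0.04 with 5 lower, and without replicate 3 it was -0.16 with 6 lower. *Fezf2* itself had 592 normalized counts in *Fezf2* shRNA replicate 4 and 621, 583 and 568 in replicates 1 to 3. Its relation to the low values of the 7 genes in replicate 4 was not tested.

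To describe how the genes varied apart from the treatment, log2 normalized counts were centred on the mean of each group and correlated over the 8 libraries. Of the 21 pairs among the 7 genes, 20 had a Pearson r above 0, with a median of 0.74. The median over all pairs of genes tested was -0.00, with 49.9% above 0. The pairs share the same 8 libraries and are a description without a test. *Hmgcs1* followed *Sqle* with r = 0.92 and *Msmo1* with r = 0.89, and *Fdps* followed *Msmo1* with r = 0.88. *Lss* was the loosest member, with r from -0.05 with *Fdft1* to 0.74 with *Idi1*. Without *Fezf2* shRNA replicate 4, the median of the 21 pairs was 0.56 and 19 were above 0.

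The remaining genes of the pathway showed how far this pattern extended. Each member was compared with the mean of the other 6, and each other gene with the mean of the 7, by the same centred values. The median r was 0.81 for the 7 members, 0.68 for other synthesis enzymes, 9 of 9 of them above 0, and 0.63 for fatty acid synthesis, 9 of 10 above 0. It was 0.34 for regulators of the pathway, 0.20 for genes of uptake and intracellular transport, -0.07 for genes of efflux, storage and turnover, and 0.02 for all genes tested. Among the 9 other enzymes r ran from 0.16 to 0.87. It was 0.87 for *Sc5d*, 0.82 for *Cyp51* and 0.76 for *Nsdhl*, and 0.52, 0.72 and 0.65 without *Fezf2* shRNA replicate 4. *Sc5d* and *Cyp51* were picked after their values were seen, so their r describes the upper part of the list. Without *Fezf2* shRNA replicate 4, the medians of the 5 lists beside the members, in the same order, were 0.54, 0.70, -0.11, 0.73 and -0.34. For the 7 members the median was then 0.75, with r from 0.08 for *Lss* to 0.92 for *Hmgcs1*, and for all genes tested it was -0.01. The medians of fatty acid synthesis and of uptake were then close to that of the members. The values for regulators and for uptake thus depended on that library.

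Outside these lists, the genes most like the mean of the 7 were *Mtmr1* with r = 0.99, *Snap29* with 0.97, *Faim2* with 0.97, *Atp8a1* with 0.96 and *Asb1* with 0.95, over the 8 libraries. They were picked for the highest r among the 9959 genes tested, over which r ran from -0.98 to 0.99. Spearman's rho for the same genes was 0.98, 0.98, 0.98, 0.93 and 0.79. Because the genes were selected by r in the same 8 libraries, neither r nor rho tests a link with the 7 genes. *Mtmr1* encodes a phosphoinositide phosphatase of the myotubularin family, *Snap29* a SNARE protein and *Atp8a1* a phospholipid flippase. Their log2 fold changes were -0.06 for *Mtmr1*, -0.00 for *Snap29*, -0.03 for *Faim2*, 0.17 for *Atp8a1* and -0.07 for *Asb1*, and none passed the threshold.

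**Figure D4:**
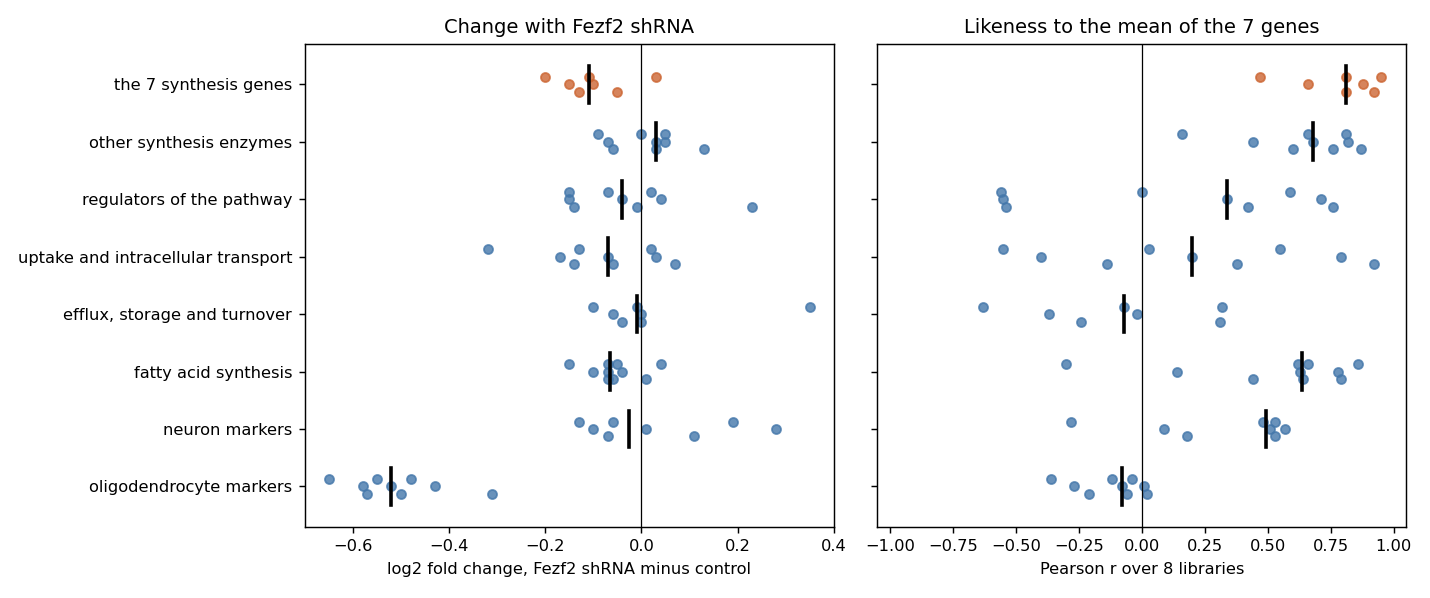
Left, log2 fold change with *Fezf2* shRNA (horizontal axis) of every tested gene in 8 lists, 1 point per gene. Right, Pearson r of the same genes with the mean of the 7 synthesis genes over 8 libraries, after centring on each group. Black bars are medians, which on the right are 0.81 for the 7 genes and 0.68 for other synthesis enzymes, and on the left -0.52 for oligodendrocyte markers.

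In the treatment comparison, no gene of the other cholesterol and fatty acid lists passed the threshold, where 2.19% of all genes did. Of 14 other synthesis enzymes, 9 were tested, with 4 lower and 5 higher and a median log2 fold change of 0.03, and with all 14 tested at a filter of more than 1 CPM the median was -0.06. For the same 9 genes the sign of the median turned when single libraries were left out, to -0.03 with 7 lower without control replicate 1, -0.04 with 6 lower without *Fezf2* shRNA replicate 2 and -0.02 with 6 lower without *Fezf2* shRNA replicate 3. With the gene-length offset the median was 0.07 with 1 lower. The smallest p in that list belonged to *Nsdhl*, which acts with *Msmo1* in removing the C4 methyl groups, with a log2 fold change of 0.13 (edgeR adjusted p = 0.276). *Acat2*, which makes acetoacetyl-CoA at the start of the chain, had -0.06 (edgeR adjusted p = 0.673).

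The regulators had 9 of 10 genes tested, with 6 lower and 3 higher and a median of -0.04. *Insig2*, which retains the SREBP escort protein in the endoplasmic reticulum, had a log2 fold change of 0.23 (edgeR adjusted p = 0.276). *Srebf1*, which encodes the SREBP1 proteins, had -0.15 (edgeR adjusted p = 0.298), and *Nr1h2*, the sterol-sensing nuclear receptor LXR beta, had -0.15 (edgeR adjusted p = 0.314).

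For uptake and intracellular transport, 9 of 10 genes were tested, with 6 lower and 3 higher and a median of -0.07. *Stard4*, a carrier of cholesterol between membranes, had a log2 fold change of -0.17 (edgeR adjusted p = 0.363). *Npc2*, which hands cholesterol on inside lysosomes, had -0.14 (edgeR adjusted p = 0.392).

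For efflux, storage and turnover, 7 of 9 genes were tested, with 6 lower and 1 higher and a median of -0.01. With the size factors of DESeq2 4 of these 7 were lower. The highest value was that of *Cyp7b1*, an oxysterol hydroxylase, with a log2 fold change of 0.35 (unadjusted p = 0.0191, edgeR adjusted p = 0.170). *Abcg1*, an exporter of sterols, had -0.10 (edgeR adjusted p = 0.386), and *Cyp46a1*, the neuronal enzyme that makes 24-hydroxycholesterol, had -0.06 (edgeR adjusted p = 0.674).

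Fatty acid synthesis, which SREBP1 controls, had all 10 genes tested, with 8 lower and 2 higher and a median of -0.07. *Elovl5*, an elongase, had a log2 fold change of -0.15 (unadjusted p = 0.0371, edgeR adjusted p = 0.228). *Fads1*, a desaturase, had -0.10 (edgeR adjusted p = 0.309), and *Scd2*, the main stearoyl-CoA desaturase of brain, had -0.07 (edgeR adjusted p = 0.606).

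Because glia make much of the cholesterol of the brain, markers of other cell types are given beside these values. In bulk tissue, fewer cells of a type and less RNA per cell cannot be told apart. The defining neuron markers of M1 tissue were present, with a summed level of 3806 to 4228 CPM in control and 3898 to 4099.6 CPM in *Fezf2* shRNA-treated samples. Of the 8 neuron markers 4 were lower and 4 higher, with a median log2 fold change of -0.02 and a range from -0.13 to 0.28. Without overlap of the treatments, 2 neuron markers were higher and 1 was lower, where 11.8% of all genes tested separated in either direction. Of 10 oligodendrocyte markers, 9 were tested, all 9 were lower in *Fezf2* shRNA-treated tissue with a median log2 fold change of -0.52, and none passed the threshold. An unadjusted p under 0.05 (edgeR) with a lower level was found for 6 of these 9, beside 7.85% of all genes tested. The summed level of the oligodendrocyte markers was 1161 to 2104 CPM in control and 859 to 1411 CPM in *Fezf2* shRNA-treated samples. In *Fezf2* shRNA replicate 4, the library with the lowest synthesis genes, the oligodendrocyte sum was 1411 CPM, and in replicate 3, the treated library with the highest synthesis genes, it was 1408 CPM. The oligodendrocyte markers had a median r of -0.08 with the mean of the 7 genes, and of 0.45 without that library.

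Astrocyte markers summed to 1141 to 1313 CPM in control and 1152 to 1255 CPM in *Fezf2* shRNA-treated samples, with 6 of 8 lower and a median log2 fold change of -0.09. Microglia markers summed to 191 to 264 CPM in control and 251 to 474 CPM in *Fezf2* shRNA-treated samples, with 6 of 8 higher and a median of 0.14. Oligodendrocyte precursor markers summed to 99.3 to 128 and 89.3 to 104 CPM, and endothelial markers to 55.5 to 79.8 and 44.4 to 58.3 CPM, in control and *Fezf2* shRNA-treated samples respectively. Of these, 4 of 6 precursor and 3 of 7 endothelial markers were tested, and all of those were lower. For 2 of the precursor and 0 of the endothelial markers the unadjusted p was under 0.05 (edgeR), where 7.85% of all genes tested were lower at that p. None of the 6 meningeal and fibroblast markers reached the level tested, and their sums were 8.16 to 31.1 and 7.29 to 38.3 CPM. No marker tested in these lists passed the threshold. The median r with the mean of the 7 synthesis genes was 0.50 for neuron, -0.21 for astrocyte and -0.61 for microglia markers, and without *Fezf2* shRNA replicate 4 it was 0.40, -0.53 and -0.47. The part of these cell types in the values of the 7 genes was not tested.

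Gene length moved with the treatment in these libraries. The median log2 fold change was -0.12 for genes under 10 kb, -0.07 from 10 to 30 kb, 0.01 from 30 to 100 kb and 0.17 over 100 kb. *Idi1* and *Fdps* were in the shortest class, *Hmgcs1*, *Sqle*, *Lss* and *Msmo1* in the next, and *Fdft1* in the class from 30 to 100 kb. Within its class *Fdft1* was at percentile 11.9, *Idi1* at 20.1, *Sqle* at 20.2, *Hmgcs1* at 39.1, *Fdps* at 44.8, *Msmo1* at 59.5 and *Lss* at 83.6. With an offset for gene length in each library, the median of the 7 genes was -0.03 with 5 lower, beside -0.01 for all genes tested, and the number of all genes past the threshold was 1. The average of the 7 genes in *Fezf2* shRNA replicate 4 was still -0.20 with this offset.

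The counts were made over whole transcript intervals on GRCm38, so each value sums exons and introns. *Hmgcs1* was counted over ENSMUST00000179869 at chr13:119690446-119708082 (plus strand, 10 exons) and *Idi1* over ENSMUST00000169314 at chr13:8885501-8892451 (plus strand, 5 exons). *Fdps* was counted over ENSMUST00000081848 at chr3:89093588-89101959 (minus strand, 10 exons) and *Fdft1* over ENSMUST00000054963 at chr14:63145153-63177793 (minus strand, 8 exons). *Sqle* was counted over ENSMUST00000022977 at chr15:59315081-59331192 (plus strand, 11 exons) and *Lss* over ENSMUST00000048678 at chr10:76531607-76555479 (plus strand, 22 exons). *Msmo1* was counted over ENSMUST00000034015 at chr8:64718139-64733792 (minus strand, 6 exons).

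For 4 genes, the intervals of other annotated transcripts gave values for stretches of the gene. In *Idi1* the inner interval, from 8885993 to 8891358, held 684 ± 69.0 normalized counts with *Fezf2* shRNA against 797 ± 39.9 with non-silencing shRNA (SD, n = 4), and the treatments did not overlap (log2 ratio -0.22). The exact permutation test gave p = 0.0286, the smallest it can give and the value of any 4 against 4 samples without overlap. Of all genes tested, 4.41% were lower in *Fezf2* shRNA-treated tissue without overlap, and the share over transcript intervals was not computed. In a fit of all 50382 transcripts tested the interval had a log2 fold change of -0.21 (edgeR adjusted p = 0.252). The remaining ends of *Idi1* had 427 ± 18.1 and 479 ± 69.4 normalized counts (log2 ratio -0.17). In *Lss*, a 3′ part that runs past the end of the counted interval, 90.1% exonic, had 645 ± 57.3 and 639 ± 31.0. The 5′ part of *Lss*, 29.3% exonic, had 469.9 ± 74.1 and 433 ± 42.2. Each of these parts of *Lss* is the interval of a transcript annotated with a retained intron, so its exonic share is not that of the coding transcript alone. In *Msmo1*, the 5′ part, 10.7% exonic, had 343 ± 66.0 and 303 ± 48.7, and the rest of the gene had 1441 ± 107 and 1547 ± 23.6. In *Sqle*, the interval without its 3′ end had 1210.1 ± 139.9 and 1366 ± 134, and the 3′ end had 251 ± 34.2 and 258 ± 34.7. In each pair the *Fezf2* shRNA-treated value is given first (SD, n = 4), and apart from the inner interval of *Idi1* the treatments overlapped.

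The counting is not stated to use strand, so reads of overlapping genes cannot be told apart. *Fdft1* shares 771 bases with *Ctsb*, which encodes the lysosomal protease cathepsin B on the opposite strand and had 12351 ± 826 normalized counts with *Fezf2* shRNA against 13906 ± 1052 with non-silencing shRNA (SD, n = 4). The log2 fold change of *Ctsb* was -0.17 (edgeR adjusted p = 0.229). *Lss* shares 9609 bases with the antisense gene *4930483K19Rik*, which had 903 ± 60.1 and 888 ± 35.5 normalized counts, close to the counts of *Lss* itself. *Fdps* overlaps *Gm43738* on its own strand over 7512 bases, and *Hmgcs1* overlaps the antisense gene *Gm48342* over 6190 bases. The values of these members are uncertain to that extent.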

How the data were processed

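M1 samples were grouped by the titles in the labels. The authors mapped the paired reads to mm10 with TopHat2 (2.1.1 in the submitters' processing notes) and deposited raw counts per Ensembl transcript interval, made with BEDTools (2.26.0) multiCov. A deposited DESeq2 table holds only the authors' own comparison and was not used. Whether reads with several alignments were counted is not given in the sources used here. The study's methods name a stranded library kit.

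Of 94647 transcripts, 91320 were found in GENCODE M21 (GRCm38), and the rest held 1.82% of counts. The transcript with the lowest Ensembl number stood for each gene. Counts were normalized by scaling each TMM-adjusted library to the mean library. Genes above 8 CPM in 4 or more libraries were tested with edgeR 4.0.16 in R 4.3.3 (TMM, quasi-likelihood test, Benjamini-Hochberg adjustment, no covariate), checked first on simulated counts. Correlations used log2 normalized counts with a pseudocount of 0.5. Promoters and figures were made with Python 3.11.15, pandas 2.3.3 and matplotlib 3.10.9. GENCODE places the start of the counted *Idi1* and *Msmo1* transcripts before the RefSeq start, so these windows were not printed. Another *Lss* transcript, which was not the one counted, starts at 76531588, inside the printed stretch.

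Named were the 7 enzymes, *Fezf2*, for each further lipid list the 3 genes of lowest p, and the 5 genes most correlated with the members' mean. *Sc5d*, *Cyp51* and the overlapping genes are outside this rule and were chosen after their values were seen. The members and lists were chosen with earlier results of these data known. Some genes, also under the rule, are not reported here but stay in the counts. Alternatives were DESeq2 1.42.0 with and without its prior, other normalizations, filters, thresholds and transcripts, a replicate block, a gene-length offset (loess, span 0.3) and each library left out. The fit of all transcripts (more than 1 CPM) and correlations without *Fezf2* shRNA replicate 4 were added after seeing the data. The common biological coefficient of variation (spread between replicates beyond counting error) was 11.7% in the edgeR fit. Spread and counting error were not compared gene by gene.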

Additional observations from a re-analysis of the deposited data

How the results depend on the processing

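None of the 7 members and no gene of the 5 further lipid lists passed the threshold in the reported fit or in any of 19 alternatives. The number of all genes past it was 218 in the reported fit, 111 at more than 1 CPM, 85 with no filter, 752 and 734 with DESeq2 without and with its prior, 563 at an adjusted p of at most 0.1, 1 with the gene-length offset and 2 with the offset and the replicate block. Leaving out 1 library gave 0 (without control replicate 1) to 401 (without control replicate 2), and 121 and 9 without control replicates 3 and 4 and 12, 8 and 17 without *Fezf2* shRNA replicates 1, 3 and 4. The causes were not tested. The sign of *Msmo1* (-0.10 to 0.00 with 1 library left out) turned to 0.02 with the gene-length offset, to 0.02 with the offset and block, and to 0.00 without *Fezf2* shRNA replicate 4, and that of *Lss* (-0.00 to 0.08 with 1 library left out) to -0.00 without *Fezf2* shRNA replicate 1. The other 5 members stayed lower in all alternatives, from -0.24 to -0.03. The median of other synthesis enzymes was -0.06 with all 14 tested at more than 1 CPM, against 0.03 for 9. With the replicate number as a block, 89 genes passed. The deviations of same-numbered samples had correlations of 0.3, 0.088, -0.133 and 0.168 in replicates 1 to 4. Not every sample correlated best with its own number. Whether the numbers pair the samples was not tested. With 4 samples per treatment, the 95% intervals of the members' log2 fold changes reach from -0.38 to 0.22, and changes within them are not resolved.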
